A study of Gallus gallus with 4 samples.

Results

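Genes of the ubiquitin-proteasome system were read in breast muscle of a fast-growing and a slow-growing chicken breed. The members were gene rows named as proteasome genes (PSMA to PSMG followed by a number), ubiquitin-conjugating enzymes (UBE2) or ubiquitin-specific proteases (USP followed by a number), with a locus on a placed chromosome and a mean over the 4 libraries of 1 FPKM or more. FPKM is the fragment number scaled by transcript length and by the mapped fragments of the library. Of 34 rows with such names among 17934 gene IDs, 31 were members: 18 proteasome genes, 7 UBE2 genes and 6 USP genes. The other 3 (PSMA5, PSMD3 and USP52) lay on unplaced sequence, where all 1470 gene IDs were listed at 0 in every library, so their level was not analysed here. The names were matched as written (UBE2F and PSME3 are listed with the ending _CHICK), so a gene listed under another name is not among the members. RefSeq's chicken annotation holds 117 symbols of these families, of which 31 name a member.

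The birds were females of Recessive White Rock (WRR) and Xinghua (XH), sampled at 7 weeks of age, fed freely on the same diet and chosen from both tails of body weight in each breed. WRRh and XHh denote the high weight birds and WRRl and XHl the low weight birds. Each of the 4 conditions was 1 library made from the mixed RNA of 3 birds, so the birds of a pool are not replicates and a difference between 2 libraries has no replicate check. Each breed came from its own supplier, so breed and supplier cannot be told apart, and a whole muscle sample cannot separate fewer cells of a type from less RNA per cell.

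Ubiquitin is activated by an E1 enzyme, passed to an E2 enzyme of the UBE2 family and attached to a protein with the help of an E3 ligase. Deubiquitinating enzymes, of which the USP genes form a large family, remove it again. Proteins marked with ubiquitin chains are degraded by the proteasome, a barrel of alpha (PSMA) and beta (PSMB) rings called the 20S core, capped by the 19S regulatory particle (PSMC and PSMD) or by activators (PSME). Dedicated chaperones (PSMG, and in mammals also PSMD5, PSMD9 and PSMD10) assemble it. In skeletal muscle this route removes much of the contractile protein lost in wasting.

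The libraries differed in depth and in the levels of cell type markers. From the size of the smallest FPKM steps, WRRl had 0.845, XHh 0.862 and XHl 1.52 times the depth of WRRh, and the number of fragments behind each FPKM value is not known. Of the 12 skeletal muscle markers listed, 3 were matched and summed to 2157 FPKM in WRRh and 2078 in WRRl, against 2481 in XHh and 2299 in XHl, mostly from MYOZ1 and DES, while TTN was under 1 FPKM in every library. Macrophage markers (6 of 9 matched) summed to 232 FPKM in WRRh and 543 in WRRl, against 99.8 in XHh and 143 in XHl, with 4 of the 6 called lower in XH by limma (model given with the breed comparison) and no matched marker listed at 0. The T cell markers (6 of 8 matched, 2 called lower in XH) summed to 69.5, 127, 18.8 and 26.0 FPKM in the same order. The B cell markers (2 of 6 matched, both called lower in XH) summed to 136, 453, 7.83 and 24.8 FPKM. In the fibroblast list (3 of 7 matched) the sums were 1680, 2019, 1062 and 855 FPKM, and COL1A2 was called lower in XH. In the adipocyte list (2 of 5 matched) PLIN1 was called lower in XH and ADIPOQ was not. The endothelium markers (2 of 5 matched) summed to 64.5, 53.4, 59.8 and 59.4 FPKM, with 0 called. The interferon response list (5 of 11 matched) also had 0 called. The share of these cell types in the results below was not tested.

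All 31 members were above 0 in all 4 libraries. Mean levels ran from 1.60 FPKM in USP43, the member nearest to the limit of 1 FPKM, to 250 FPKM in PSMD7, with a median of 37.7 FPKM. No placed row with a family name fell under the limit. The members lay on 19 chromosomes, at most 4 of them on the same chromosome (chromosome 27), by the positions deposited with the values, whose genome build was not established. The proteasome genes had the highest median level (54.1 FPKM), above the UBE2 genes (20.3 FPKM) and the USP genes (14.1 FPKM).

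**Figure D1:**
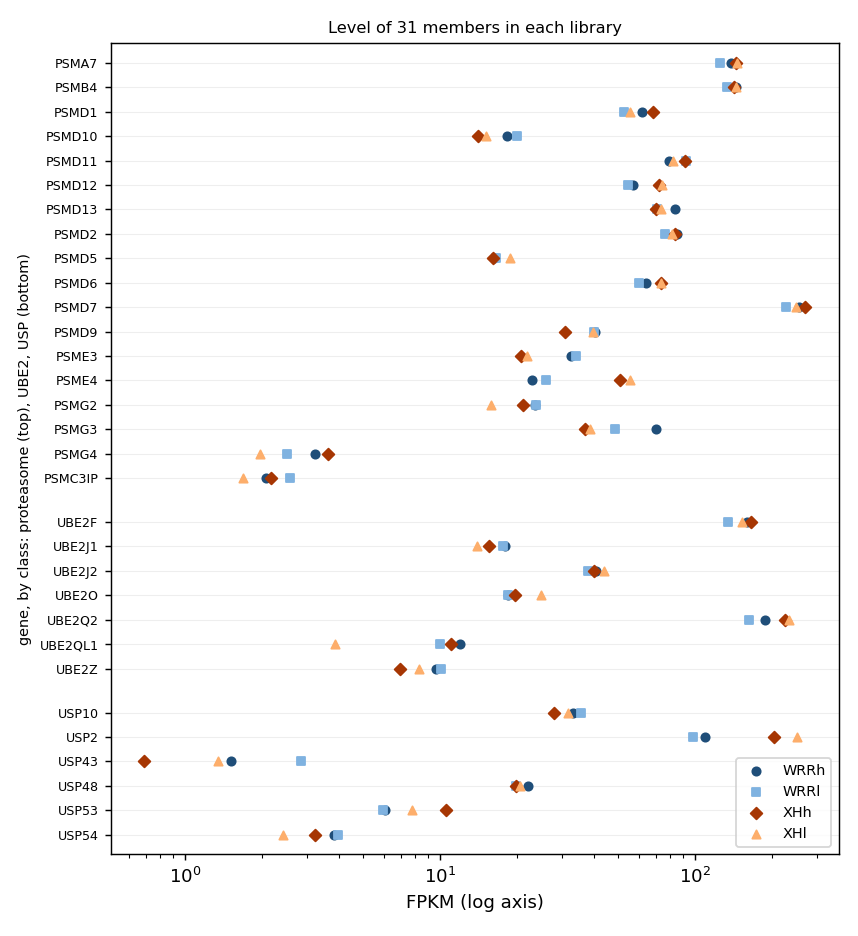
FPKM of each of the 31 members (rows) in WRRh, WRRl, XHh and XHl (points) on a log axis, with proteasome genes at the top, UBE2 genes in the middle and USP genes at the bottom. Proteasome subunits such as PSMB4 sit close together across the 4 libraries, while the XH points of PSME4 and USP2 lie to the right of the WRR points, and UBE2QL1 has a separate low point in XHl (3.85 FPKM).

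The 9 members that are structural subunits of the proteasome had mean levels of 59.6 to 250 FPKM. In the deposited FPKM their highest library was 1.08 to 1.36 times the lowest. With median-of-ratios factors (see the breed comparison) all 9 were higher in XH, by a median log2 difference of 0.38. With these factors 49.9% of all genes tested were higher in XH, and 64.4% of genes whose mean reached 10 FPKM. With the deposited FPKM 8 of the 9 were higher in XH, and 5 of the 9 without WRRl. From the 20S core the members hold only PSMA7 and PSMB4, so no catalytic beta subunit was read. No member encodes a PSMC subunit, so evenness over the whole particle was not tested. PSMA7, an alpha ring subunit of the 20S core, stood at 138 FPKM in WRRh and 125 in WRRl, against 144 in XHh and 146 in XHl. PSMB4, a beta ring subunit without catalytic activity, stood at 144, 134, 142 and 144 FPKM in the same order. For PSMB4 the highest library was 1.08 times the lowest, the smallest such ratio among the members. With the deposited FPKM its breeds overlapped, whereas both XH libraries of PSMA7 were above both WRR libraries by a small margin. That order held in 15.0% of all genes tested. With median-of-ratios factors it held in PSMA7, in PSMB4 and in 32.9% of all genes.

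Among the 19S genes, PSMD7 had the highest level of any member. PSMD7, the lid subunit that pairs with the deubiquitinase of the 19S particle, was at 256 FPKM in WRRh and 226 in WRRl, against 271 in XHh and 248 in XHl, and held between 20.5% and 22.4% of the summed FPKM of the proteasome genes. PSMD2 and PSMD1, the large scaffold subunits of the 19S base, ranged from 76.0 to 85.1 FPKM and from 52.8 to 68.1 FPKM over the libraries. The lid subunits PSMD11 and PSMD13 ranged from 79.0 to 91.7 FPKM and from 70.0 to 83.4 FPKM. In each of these 5 genes the breeds overlapped with the deposited FPKM. With median-of-ratios factors (see the breed comparison) each had both XH libraries above both WRR libraries, beside 32.9% of all genes tested.

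PSMD12 and PSMD6, also lid subunits, were the 19S genes with both XH libraries above both WRR libraries in the deposited FPKM. That order held in 15.0% of all genes tested. With median-of-ratios factors (see the breed comparison) it held in 32.9% of them. PSMD1, PSMD2, PSMD5, PSMD7, PSMD11 and PSMD13 then also had XH above WRR. PSMD12 was at 57.3 FPKM in WRRh and 54.5 in WRRl, against 72.4 in XHh and 74.0 in XHl. PSMD6 was at 64.1, 60.3, 73.2 and 73.4 FPKM in the same order. The breeds did not overlap in either gene, yet neither passed the limma test of breed (log2 difference 0.38, SE 0.12, adjusted p = 0.122 for PSMD12, and 0.23, SE 0.12, adjusted p = 0.253 for PSMD6).

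The 6 members that act as chaperones of proteasome assembly were lower in level than the structural subunits. The 9 structural subunits had mean levels of 59.6 to 250 FPKM, and the 6 assembly chaperones 2.83 to 48.6 FPKM, a grouping by known role that was made after the values were seen. PSMG3, which works as a pair with PSMG4 on the alpha ring, was at 70.3 FPKM in WRRh and 48.4 in WRRl, against 37.0 in XHh and 38.7 in XHl, and PSMG4 was at 3.22, 2.51, 3.63 and 1.96 FPKM. PSMG3 was thus highest in WRRh with both XH libraries lowest, and PSMG4 was the least abundant chaperone, with overlapping breeds. PSMG2, the partner of PSMG1, was at 23.7 FPKM in both WRR libraries, 21.2 in XHh and 15.9 in XHl.

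The chaperones of the 19S base did not all order the breeds the same way. PSMD10 was at 18.3 FPKM in WRRh and 20.02 in WRRl, against 14.1 in XHh and 15.2 in XHl, with both XH libraries below both WRR libraries. That order held in 51.8% of all genes tested. PSMD9 ranged from 30.8 FPKM in XHh to 40.4 FPKM in WRRh, with XHl at 39.6 FPKM just under the lower WRR library. PSMD5 ranged from 16.1 to 18.9 FPKM, and its breeds overlapped with the deposited FPKM. With median-of-ratios factors (see the breed comparison) PSMD10 kept its order, the breeds overlapped in PSMD9, and PSMD5 had XH above WRR. Summed over the 6 chaperones, FPKM was 172 in WRRh and 151 in WRRl, against 123 in XHh and 130 in XHl, while the 9 structural subunits summed to 969, 892, 1015 and 978 FPKM.

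Both activators of the core in the table had breeds that did not overlap, in opposite directions, and PSME4 alone of the pair passed the test of breed given further on. Over all genes tested, both XH libraries were above both WRR libraries in 15.0% and below in 51.8%, so the order of PSME3 was a common one. With median-of-ratios factors (see the breed comparison) these shares were 32.9% and 31.2%, and both activators kept their order. PSME4 encodes PA200, a large nuclear activator that caps the ends of the 20S core without ATP, and lies at 2876710 to 2935091 of chromosome 3 in the deposited positions. Its level was 23.0 FPKM in WRRh and 26.1 in WRRl, against 50.7 in XHh and 55.6 in XHl. Both XH libraries were thus far above both WRR libraries, and the mean of XH was 2.17 times that of WRR. PSME3 encodes the nuclear activator PA28 gamma and lies at 4698614 to 4725288 of chromosome 27. Its level was 32.7 FPKM in WRRh and 34.0 in WRRl, against 20.7 in XHh and 22.0 in XHl, so that both XH libraries were below both WRR libraries, with a ratio of means of 0.639. PSME4 was 0.704 and 0.767 times PSME3 in WRRh and WRRl, and 2.45 and 2.53 times PSME3 in XHh and XHl. FPKM is scaled by length, so the order of the 2 activators was reversed between the breeds on that scale. A gene model without a symbol overlaps PSME3 in the deposited positions and was at 0.887 FPKM or less in every library, and no source used here says whether the counting used strand.

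**Figure D2:**
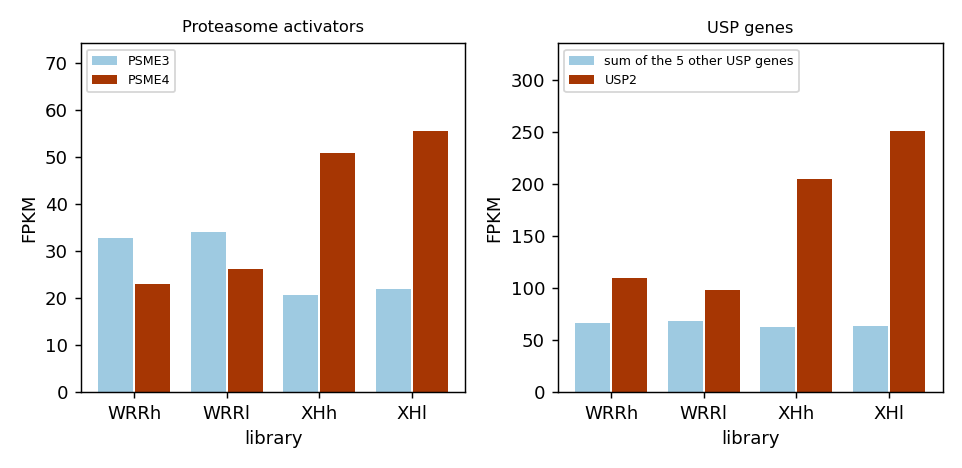
FPKM per library (bars, axes from 0) of the proteasome activators PSME3 and PSME4 on the left, and of USP2 against the sum of the other 5 USP genes on the right. PSME3 is the taller bar in WRRh and WRRl and PSME4 in XHh and XHl, and USP2 rises from 97.8 to 110 FPKM in WRR to 205 to 251 FPKM in XH while the sum of the other USP genes stays between 62.3 and 68.3 FPKM.

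PSMC3IP carries a proteasome name but encodes a meiotic recombination factor that was first described as a partner of the proteasome subunit PSMC3. It was among the least abundant members, between 1.68 FPKM in XHl and 2.57 FPKM in WRRl, and the breeds overlapped.

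The UBE2 genes were led by a pair with very high levels. UBE2Q2, an E2 enzyme with a long amino-terminal extension, was at 187 FPKM in WRRh and 163 in WRRl, against 225 in XHh and 232 in XHl. UBE2F, an E2 that conjugates the ubiquitin-like protein NEDD8, was at 159, 135, 165 and 153 FPKM in the same order. UBE2Q2 and UBE2F together made up 76.0% to 80.7% of the summed FPKM of the 7 UBE2 genes in each library. With the deposited FPKM both XH libraries of UBE2Q2 were above both WRR libraries, as in 15.0% of all genes tested, and the breeds overlapped in UBE2F. With median-of-ratios factors (see the breed comparison) XH was above in both genes and in 32.9% of all genes.

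The other UBE2 genes were lower, and apart from UBE2QL1 their highest library was 1.16 to 1.45 times the lowest. Summed with UBE2QL1 included, the deposited FPKM was 98.9 in WRRh and 94.1 in WRRl, against 93.2 in XHh and 94.8 in XHl. With these values UBE2O had both XH libraries above both WRR libraries, beside 15.0% of all genes tested. UBE2J1 and UBE2Z had both below, beside 51.8%. With median-of-ratios factors (see the breed comparison) UBE2O and UBE2J2 were above, beside 32.9%, and UBE2J1 and UBE2Z overlapped. UBE2J2 and UBE2J1, the E2 enzymes anchored in the membrane of the endoplasmic reticulum that serve the removal of misfolded proteins, ranged from 38.0 to 43.9 FPKM and from 14.0 to 18.0 FPKM. UBE2O, a large enzyme that combines E2 and E3 activity, was at 18.4 FPKM in both WRR libraries, 19.6 in XHh and 24.8 in XHl. UBE2Z, which in mammals receives ubiquitin from the E1 enzyme UBA6 rather than UBA1, ranged from 6.97 FPKM in XHh to 10.1 FPKM in WRRl. For comparison, UBA6 itself ranged from 9.14 FPKM in XHl to 11.4 FPKM in WRRh.

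UBE2QL1, a relative of the UBE2Q enzymes, was the member with the largest gap between the weight classes of XH. Its level was 11.9 FPKM in WRRh and 10.001 in WRRl, against 11.1 in XHh and 3.85 in XHl. XHl stood apart as the low library, while the other 3 libraries lay close together. On the log2(FPKM + 1) scale XHl was 1.32 below XHh, and WRRl was 0.23 below WRRh. With 1 library per condition neither difference could be tested, and XHl was the deepest of the libraries.

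The USP genes were dominated by USP2. USP2, a deubiquitinase with several isoforms that is known in mammals as an output of the circadian clock, lies at 4214133 to 4220496 of chromosome 24. It was at 110 FPKM in WRRh and 97.8 in WRRl, against 205 in XHh and 251 in XHl. Both XH libraries were far above both WRR libraries, with a ratio of means of 2.20. USP2 held 62.1% and 58.9% of the summed FPKM of the USP genes in WRRh and WRRl, and 76.7% and 79.8% in XHh and XHl. FPKM values are given per gene, so isoforms of USP2 were not separated.

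The remaining USP genes were at much lower levels and, with the deposited FPKM, did not all order the breeds the same way. USP53 was at 6.09 FPKM in WRRh and 5.98 in WRRl, against 10.5 in XHh and 7.76 in XHl, with XH above WRR. USP10, a deubiquitinase known to act on p53 and to bind the stress granule protein G3BP, was at 33.3, 35.7, 28.0 and 31.7 FPKM in the same order, with XH below WRR. USP54 was at 3.85, 3.97, 3.24 and 2.41 FPKM, also with XH below WRR. USP48 varied least in the family, between 19.8 FPKM in WRRl and 22.1 FPKM in WRRh, and its breeds overlapped. USP43, the least abundant member, was at 1.51 FPKM in WRRh and 2.85 in WRRl, against 0.690 in XHh and 1.34 in XHl. It was thus higher in the low weight library of each breed and lower in XH than in WRR, at levels where a pseudocount of 1 shrinks the log2 difference. Over all genes tested, both XH libraries were above both WRR libraries in 15.0% and below in 51.8%. With median-of-ratios factors (see the breed comparison) 0 of the 6 USP genes had both XH libraries below, beside 31.2% of all genes. USP53 stayed above and USP48 no longer overlapped but was above too, beside 32.9% of all genes.

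The spread over the 4 libraries differed among the classes. The median ratio of the highest to the lowest library was 1.30 in the proteasome genes. It was 1.35 in the UBE2 genes and 1.70 in the USP genes. Beside these, it was 1.59 over all 10669 genes tested and 1.42 over the 5349 genes whose mean reached 10 FPKM. The medians over all genes leave out those at 0 in a library, which have no such ratio (313 and 88 genes). The median ratio was 1.19 over the 12 PSMA, PSMB and PSMD genes, which include the chaperones PSMD5, PSMD9 and PSMD10. In 27 of the 31 members the highest library was under 2 times the lowest, and the exceptions were PSME4, UBE2QL1, USP2 and USP43. Summed FPKM of the proteasome genes was 1199 in WRRh and 1106 in WRRl, against 1211 in XHh and 1187 in XHl. The UBE2 genes summed to 445, 392, 483 and 480 FPKM, and the USP genes to 176, 166, 267 and 315 FPKM. These ratios and sums used the deposited FPKM. With median-of-ratios factors (see the breed comparison) the proteasome sums were 1102 in WRRh and 988 in WRRl, against 1361 in XHh and 1283 in XHl. Both XH sums were then above both WRR sums.

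The breed comparison (XH minus WRR) asked which genes differ between a slow-growing and a fast-growing breed. It was tested with limma on log2(FPKM + 1) of all genes whose mean reached 1 FPKM, taking both weight classes of a breed as its replicates, with Benjamini-Hochberg adjustment over the 10669 genes and a threshold of 0.05. The model also held weight class and left 1 residual degree of freedom, the change of the breed difference between the weight classes. This spread was moderated with that of all genes, so an SE is not the spread of a gene on its own. The p-values measure only the spread between these libraries. By this test 2 members, PSME4 and USP2, were higher in XH and 0 were lower, while 1.22% of all genes were called higher and 3.53% lower. At an unadjusted p under 0.05, 5 members were higher (also UBE2Q2, PSMD12 and USP53) and 3 lower (PSME3, PSMG3 and PSMD10). Of all genes tested, 665 were higher and 2993 lower at that level.

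PSME4 rose in XH by 1.09 on the log2 scale (SE 0.12, limma adjusted p = 0.0483) and USP2 by 1.12 (SE 0.16, adjusted p = 0.0483). Their changes ranked 183 and 174 from the highest among 10669 genes. Both calls lay close to the threshold. PSME4 was no longer called without WRRl (adjusted p = 0.0692), without XHh (0.236) or without XHl (0.232), and neither was USP2 (0.0807, 0.236 and 0.232), although both log2 differences stayed between 0.98 and 1.40 under every alternative run. PSME3 was the next member by adjusted p, with a log2 difference of -0.62 (SE 0.12, adjusted p = 0.0641), and it was called lower under 3 of 14 settings, against 7 of 14 for PSME4 and for USP2.

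The level of the whole table shifted between the breeds, which sets the direction of small differences. The median log2 difference over all genes tested was -0.245 with the deposited FPKM, and scaling by median-of-ratios factors moved it by 0.24 to -0.0014. Relative to the median of all genes, PSME4 stood at 1.33, USP2 at 1.37, PSMD12 and UBE2Q2 at 0.63 and PSME3 at -0.38. The proteasome genes had a median log2 difference of 0.03 and of 0.31 with median-of-ratios factors, but -0.03 without WRRl or without XHh. The UBE2 genes had medians of 0.08 and 0.36, falling to -0.0037 without WRRl. The USP genes had a median of -0.13 that was 0.15 with median-of-ratios factors, 0.11 with quantile normalization and 0.23 at a minimum mean of 5 FPKM, which leaves out USP43 and USP54. Genes whose mean reached 10 FPKM, as it did in most members, had a median of -0.12 with the deposited values and 0.16 with median-of-ratios factors.

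**Figure D3:**
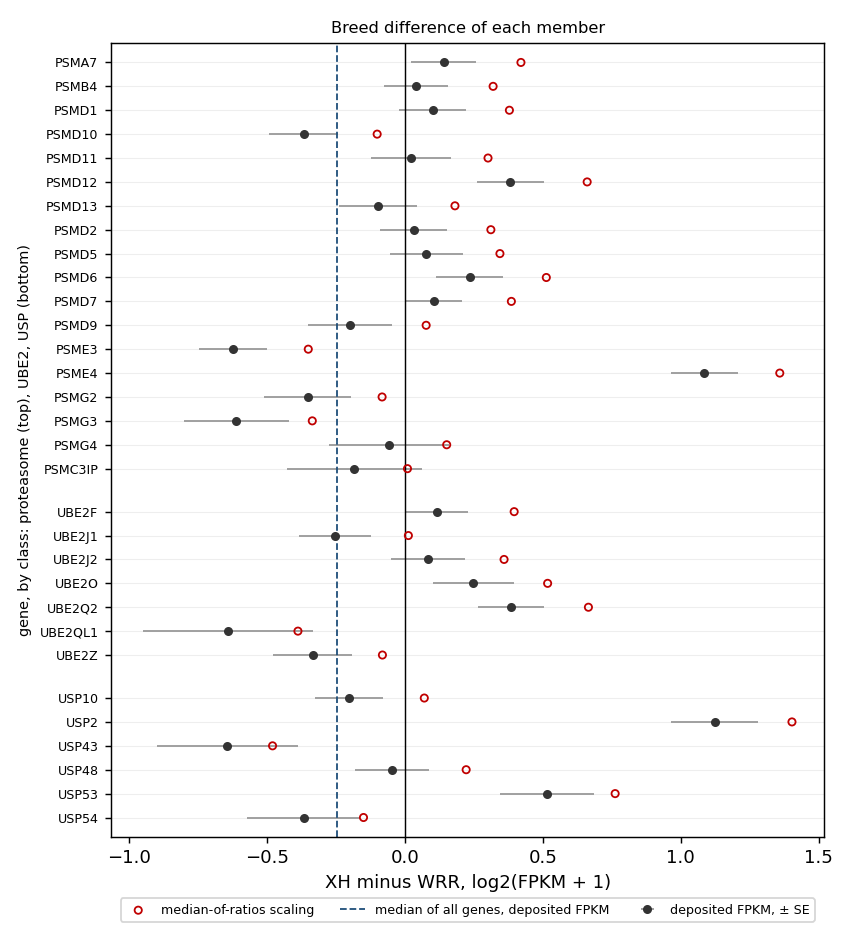
Difference between the breeds (XH minus WRR, log2(FPKM + 1)) of each member (rows) with deposited FPKM (filled points, bars are the limma SE) and with median-of-ratios scaling (open points), beside the median of all genes (dashed line, -0.245). PSME4 and USP2 lie to the right near 1.09 and 1.12, and PSME3, PSMG3, UBE2QL1 and USP43 to the left. Most PSMA, PSMB and PSMD genes lie within 0.4 of 0 and to the right of the dashed line.

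Among the members, the structural subunits and the assembly chaperones of the proteasome had different medians, in a grouping made after the values were seen that holds genes with PSM names only. Over the 9 structural subunits the median log2 difference was 0.10, with 8 positive and 1 negative (PSMD13, -0.10). Over the 6 chaperones it was -0.28, with 1 positive (PSMD5, 0.08) and 5 negative. The chaperone median was close to that of all genes tested (-0.245), of which 28.3% were positive. With median-of-ratios factors the medians of the subunits and the chaperones were 0.38 and -0.0028, beside -0.0014 over all genes. Then 3 of the 6 chaperones were positive, beside 49.9% of all genes. The subunits were also the more abundant group. Genes whose mean reached 10 FPKM had a median of -0.12 with the deposited FPKM, and 38.2% were positive. With median-of-ratios factors their median was 0.16, and 64.4% were positive. The share of level in the difference between subunits and chaperones was not tested. Without WRRl, 5 of the 9 structural subunits were positive, with a median of 0.02. No structural subunit or chaperone passed the test of breed, and PSMG3 came nearest among the chaperones (-0.61, SE 0.19, limma adjusted p = 0.118). POMP, a chaperone of the 20S core outside the naming rule, had both XH libraries above both WRR libraries (log2 difference 0.15, adjusted p = 0.400). The difference between these groups of genes was not tested.

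Counted without a model, both XH libraries lay above both WRR libraries in 8 members (4 of 18 proteasome, 2 of 7 UBE2 and 2 of 6 USP genes), beside 15.0% of all genes tested. Both XH libraries lay below both WRR libraries in 10 members (5, 2 and 3 in the same order), beside 51.8% of all genes. With median-of-ratios factors the counts became 18 above, beside 32.9% of all genes, and 3 below, beside 31.2%. The 3 below under both scalings were PSME3, PSMG3 and PSMD10. The 8 members above with deposited FPKM, which are PSMA7, PSMD6, PSMD12, PSME4, UBE2O, UBE2Q2, USP2 and USP53, were also above after rescaling.

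Between pairs of libraries, few members differed at least 2-fold on the log2(FPKM + 1) scale. In WRRh vs. XHh only PSME4 did (1 of 31 members, log2 difference 1.11), beside 9.21% of genes. USP2 was 0.89 apart there. In WRRl vs. XHl it was 3 of 31 members (USP2 1.35, PSME4 1.06 and UBE2QL1 -1.18), beside 14.1% of genes. With median-of-ratios factors USP2 joined PSME4 in WRRh vs. XHh, and UBE2QL1 was no longer counted in WRRl vs. XHl, where 2 members remained (USP2 and PSME4).

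The weight comparison (low minus high) asked which genes differ between light and heavy birds of the same breed. No member was called higher or lower by limma, beside 0.0375% of all genes called higher and 0.0187% lower, and 0 members had an unadjusted p under 0.05 in either direction. Over all genes, 433 were higher and 186 lower at that level. The lowest adjusted p of a member was 0.809, for UBE2QL1 among others (log2 difference -0.77, SE 0.31). In WRRh vs. WRRl, 0 of 31 members were at least 2-fold apart, beside 4.03% of genes. In XHh vs. XHl it was 1 of 31, UBE2QL1, beside 1.32% of genes.

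The sign of the difference between the weight classes was not the same in both breeds for every member. In WRR 19 members were lower and 12 higher in the low weight library, and in XH 12 were lower and 19 higher. The same counts over all genes were not made. The median log2 difference of the members was -0.07 in WRR and 0.03 in XH, beside 0.05 and 0.06 over all genes tested. Across both breeds 8 members were higher and 8 lower in the low weight library each time. USP2 was lower in WRRl than in WRRh by a log2 difference of -0.16 and higher in XHl than in XHh by 0.30. PSME4 was slightly higher in the low weight library of both breeds (0.17 in WRR and 0.13 in XH). PSMG3 differed by -0.53 in WRR and 0.06 in XH. These differences between the breeds were not tested, since each rests on 1 library per condition.

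**Figure D4:**
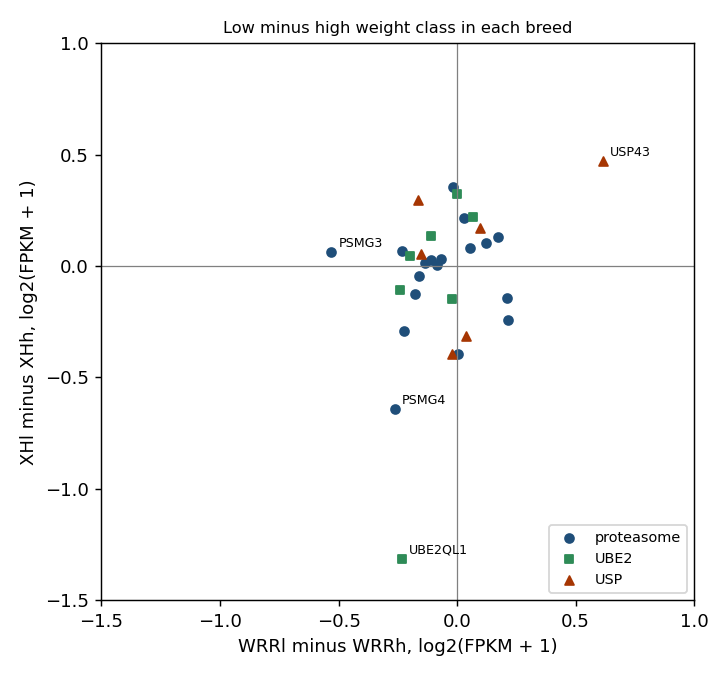
Log2 difference between the low and the high weight library in WRR (x axis) and in XH (y axis) of each member, by class (symbols). Most members lie within 0.4 of 0 on both axes, UBE2QL1 lies low at -0.23 and -1.32, PSMG4 at -0.26 and -0.64, PSMG3 to the left at -0.53, and USP43 at 0.62 and 0.47.

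Other genes of the pathway were read from lists of 79 symbols, of which 44 were matched and tested by limma. Of these, 2 were called higher in XH, 0 lower in XH and 0 between the weight classes. Over all genes tested, 1.22% were called higher and 3.53% lower in XH. ZFAND5, a zinc finger protein that in mammals binds ubiquitin and the proteasome and is needed for muscle atrophy, was at 38.0 FPKM in WRRh and 48.0 in WRRl, against 136 in XHh and 109 in XHl (log2 difference 1.49, SE 0.20, adjusted p = 0.0483). ZRANB1, a deubiquitinase of the OTU family, was at 15.2, 13.7, 46.5 and 31.5 FPKM (1.35, SE 0.16, adjusted p = 0.0483). In both genes every XH library was at least double every WRR library. Both calls lay close to the threshold of 0.05, and whether they held under the alternatives is not given here.

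The remaining lists were read by their sums, medians and calls. The E1 and E1-like enzymes (4 of 10 tested) summed to 40.9 FPKM in WRRh and 40.7 in WRRl, against 34.5 in XHh and 35.2 in XHl, with 0 called. RPS27A, which encodes ubiquitin fused to a ribosomal protein and was the 1 ubiquitin gene matched of 5, was at 586, 619, 517 and 614 FPKM. The list of assembly, activity and gene control of the proteasome (13 of 16 tested) had a median log2 difference of 0.10, with ZFAND5 as its only call. POMP, the chaperone that matures the 20S core, was at 130, 131, 146 and 142 FPKM, and PAAF1, which binds the 19S ATPases, was at 6.33, 5.62, 2.88 and 3.37 FPKM (-0.76, adjusted p = 0.0829).

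Shuttle and VCP factors (8 of 16 tested) had 0 calls and a median log2 difference of 0.02. SQSTM1, the ubiquitin receptor of autophagy, was at 140 FPKM in WRRh and 171 in WRRl, against 91.8 in XHh and 108 in XHl (-0.63, adjusted p = 0.0574), so that the breeds did not overlap without a call. FAF1, a VCP cofactor, was listed at 0 in XHl and at 15.9 to 19.1 FPKM in the other libraries. XHl was the deepest library, and whether this 0 reflects absent RNA or the quantification was not tested. The deubiquitinases outside the USP family (18 of 32 tested) had a median of -0.20, with ZRANB1 as the only call. With median-of-ratios factors the medians of these lists were -0.02 for the E1 enzymes, 0.37 for the assembly and control list, 0.30 for the shuttle factors and 0.06 for the deubiquitinases.

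Some relatives of the members are listed in the table under protein entry names and were read after their values were seen. UBC9_CHICK, the E2 enzyme that conjugates SUMO, was at 80.8 FPKM in WRRh and 84.5 in WRRl, against 90.8 in XHh and 95.5 in XHl. UBP47_CHICK, which is USP47, was at 26.6, 28.9, 33.6 and 34.4 FPKM. Both were higher in every XH library than in every WRR library, and neither was called by limma (adjusted p = 0.357 and 0.196). UB2V2_CHICK, an E2 variant without a catalytic cysteine, was at 14.4, 12.5, 15.1 and 16.5 FPKM, also with XH above WRR and no call (adjusted p = 0.348). UBP37_CHICK, which is USP37, ranged from 5.57 to 6.82 FPKM, with overlapping breeds. Over all genes tested, 15.0% had both XH libraries above both WRR libraries.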

How the data were processed

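Breast muscle RNA of 4 pools, each of 3 birds, was sequenced, and the authors cleaned the reads, aligned them to the chicken genome of Ensembl by TopHat and deposited FPKM values per gene in 4 tables that each compare 2 libraries. The submitters' notes name TopHat and galGal4. No source used here gives the TopHat version or the build of the deposited positions. The tables also hold the fold change, p-value, q-value and call that the authors computed for each pair of libraries, and none of these was used. Where 2 tables differed for a gene and library (69 pairs), the value above 0 was taken.

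Log2(FPKM + 1) of the 10669 genes whose mean reached 1 FPKM was fitted in limma 3.58.1 (R 4.3.3) with breed and weight class as terms, trend and robust moderation, and Benjamini-Hochberg adjustment at 0.05 (two-sided). Pairs of libraries were compared without a test, as ratios of log2(FPKM + 1), with genes at 0 in either library or with a mean under 1 FPKM left out. No read counts were available for a count model. Alternatives changed the pseudocount, the minimum, the scaling, the moderation, the model and the libraries, 13 for each limma result except USP54, whose mean is under the alternative minimum of 5 FPKM. The members and the gene lists were chosen with earlier results of these data known. Text names genes that were called, that were at least 2-fold apart between 2 libraries or that were among the 5 with the highest mean of their class, and the other members were named after their values were seen. Symbols were checked against RefSeq names only.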

Additional observations from a re-analysis of the deposited data

How the results depend on the processing

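The count of members called higher in XH was 2 with the deposited scaling and 0 with a pseudocount of 5, with no minimum, with quantile normalization and with plain moderation, and it ran from 0 to 2 when 1 library was left out. The count of members called lower was 1 (PSME3) at a minimum mean of 5 FPKM, among genes above 0 in all libraries and with breed alone in the model. In WRRh vs. XHh, 2 members were at least 2-fold apart with median-of-ratios factors (PSME4 and USP2) and 2 with a pseudocount of 0.1 (PSME4 and USP43), and in WRRl vs. XHl UBE2QL1 was no longer among them with median-of-ratios factors, which left 2. With median-of-ratios factors 18 members had both XH libraries above both WRR libraries and 3 had both below. Calls for the weight classes stayed at 0 under all alternatives run. A fit without 1 library holds the tested factor alone and assumes that the lone library varies like the others, so a call lost there does not measure a weaker effect. No paired analysis by replicate number was possible because each condition has 1 library. The weight class term pairs the breeds within a weight class, and the model with breed alone leaves this pairing out. The unknown number of fragments behind each FPKM value limits the least abundant members, USP43, PSMC3IP and PSMG4.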
